A study of Mus musculus with 8 samples.

Results

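The genes described here are 37 genes of cholesterol and fatty acid synthesis, a list of the enzymes of both pathways and of the proteins that control them. A member was measured when the platform annotation gave a probe set its symbol and no other, and the probe set with the highest mean was read where a gene had more than 1. This gave 36 members among the 19938 genes of the table, 23 of 24 in the sterol branch and 13 of 13 in the fatty acid branch. Acat2, a thiolase at the entry of the sterol branch, had no probe set with its symbol alone and was not analysed here.

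Gene expression had been measured on 8 Affymetrix whole-transcript arrays of mouse T helper cells. Tet2 encodes a dioxygenase that acts on methylated cytosine, and the series asks what its loss changes in T helper subsets. There were 4 groups of 2 arrays: Tet2-deficient Th17 cells and wild-type Th17 cells, and Tet2-deficient Th1 cells and wild-type Th1 cells. Tet2-deficient cells came from CD2(Cre)Tet2(f/f) mice, in which the Cre recombinase is under CD2, a gene active across lymphocytes, and wild-type cells came from Tet2(f/f) mice, which carry the same floxed allele without Cre. The age of the mice, the culture of the cells and any pooling are not given in the labels. The titles call the arrays of a group biological replicates without naming animals. The p-values below therefore weigh a difference against the spread between arrays, not between known animals.

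Cholesterol is built from acetyl-CoA. The mevalonate steps make isoprenoid units, squalene is joined from them, and a chain of enzymes turns squalene through lanosterol into cholesterol. When sterols in the endoplasmic reticulum run low, SCAP escorts the transcription factors SREBP-1 and SREBP-2 (genes Srebf1 and Srebf2) to the Golgi, where they are cut and released to switch on these genes, while INSIG proteins hold SCAP back when sterols are plentiful. Fatty acids are built from the same acetyl-CoA by acetyl-CoA carboxylase and fatty acid synthase, then lengthened by ELOVL enzymes and desaturated by SCD and FADS enzymes. Activated T cells are known to raise both pathways as they make membrane for growth, and fatty acid synthesis through Acaca is known to take part in Th17 differentiation in mice.

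SREBP proteins bind sterol regulatory elements, often beside sites for NF-Y and Sp1, so the promoter windows of the members were searched on both strands for TCACNCCAC (the core of a sterol regulatory element), CACGTG (an E-box, which SREBP-1 can also bind), CCAAT (the NF-Y box) and GGGCGG (the GC box of Sp1). RefSeq windows in GRCm38.p6, from 250 bases before to 50 bases after a transcript start, were matched for 28 members, with 38 windows in all. TCACNCCAC was found in 2.63% of the member windows, against 1.24% of all 32851 windows, and CACGTG in 18.4%, against 7.15%. CCAAT was found in 65.8% of the member windows, against 37.4% of all windows, and GGGCGG in 73.7%, against 35.7%. By branch, TCACNCCAC was in 1 of 27 sterol and 0 of 11 fatty acid windows. CACGTG was in 6 sterol windows (22.2%) of 5 genes and in 1 fatty acid window (9.09%), the latter near the share of all windows. CCAAT was in 70.4% of sterol and 54.5% of fatty acid windows, and GGGCGG in 81.5% and 54.5%. A match is a description of the letters in a window and not a bound site. Hmgcs1 was the only member with the sterol element in its window. None of the sterol genes called in any comparison below held it in these windows, so the sequences printed here were chosen after the search: Hmgcs1 for its element, and Msmo1, Lss and Insig1 as the called sterol genes with a single window. Each is the 250 bases before the transcript start, 5′ to 3′ on the gene's strand, with matches to the sterol element, the E-box and the NF-Y box (CCAAT, or ATTGG on the other strand) in capitals, and none of these matches overlapped another motif.
Hmgcs1, chr13:119690101-119690350, plus strand: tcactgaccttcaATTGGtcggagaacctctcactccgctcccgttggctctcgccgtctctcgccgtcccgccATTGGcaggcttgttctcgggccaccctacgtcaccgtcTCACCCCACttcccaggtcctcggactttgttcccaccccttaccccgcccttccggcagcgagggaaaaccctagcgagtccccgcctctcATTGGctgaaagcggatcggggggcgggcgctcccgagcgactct
Msmo1, chr8:64733579-64733828, minus strand: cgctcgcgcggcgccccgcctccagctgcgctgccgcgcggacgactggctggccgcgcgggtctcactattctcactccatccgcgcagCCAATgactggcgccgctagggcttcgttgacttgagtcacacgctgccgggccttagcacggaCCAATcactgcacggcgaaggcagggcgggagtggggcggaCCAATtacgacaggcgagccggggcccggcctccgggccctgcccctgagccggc
Lss, chr10:76531355-76531604, plus strand: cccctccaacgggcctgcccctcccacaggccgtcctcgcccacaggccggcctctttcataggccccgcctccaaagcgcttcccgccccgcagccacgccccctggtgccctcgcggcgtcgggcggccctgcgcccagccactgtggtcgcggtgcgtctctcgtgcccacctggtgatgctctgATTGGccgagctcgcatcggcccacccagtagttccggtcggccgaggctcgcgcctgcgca
Insig1, chr5:28071162-28071411, plus strand: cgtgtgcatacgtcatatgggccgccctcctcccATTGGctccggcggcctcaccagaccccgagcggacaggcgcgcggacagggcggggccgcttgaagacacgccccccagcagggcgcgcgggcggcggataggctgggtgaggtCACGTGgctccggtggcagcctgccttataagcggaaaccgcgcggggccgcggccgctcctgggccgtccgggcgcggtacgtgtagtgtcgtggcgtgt
The Hmgcs1 window held the element as TCACCCCAC, 137 to 129 bases before the start, with NF-Y boxes on both sides of it. Msmo1 held 3 NF-Y boxes, at 160 to 156, 96 to 92 and 55 to 51 bases before its start. Lss held 1 NF-Y box, 62 to 58 bases before its start, and Insig1 held an NF-Y box 216 to 212 bases and an E-box 101 to 96 bases before its start.

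Values are log2 signals of a probe set, so a difference of 1 is a doubling. Signals of different genes cannot be set against each other, because each probe set has its own response. Log2 fold changes are given ± their standard error, with n = 2 arrays in each group. Limma draws that error from the spread within all 4 groups and moderates it across genes, so it is not that of the compared arrays alone. Calls were made where limma's moderated test gave p under 0.05 after Benjamini-Hochberg adjustment over the 19938 genes. The median signal of an array lay between 6.53 and 6.61, and the arrays of a group correlated at 0.990 to 0.994 across genes, which are not independent replicates. Tet2 itself read 8.34 and 8.39 in Tet2-deficient Th17 cells, 8.51 and 8.49 in wild-type Th17 cells, 8.12 and 7.98 in Tet2-deficient Th1 cells, and 8.14 and 8.02 in wild-type Th1 cells. The deleted part of the gene is not given in the labels and a whole-transcript probe set can read exons outside it, so this signal checks neither genotype. Labelled subsets matched their markers: Il17f was 10.60 to 11.04 on the Th17 arrays, against 6.54 to 6.83 on the Th1 arrays, and Tbx21 was 6.92 to 7.85 on the Th17 arrays, against 10.20 to 10.44 on the Th1 arrays. Of the defining T cell genes, Cd3e, Cd3d, Cd3g and Cd4 had signals between 8.66 and 11.83 on all arrays, and 6 of 6 myeloid genes lay at 4.59 to 5.99. The Th17 arrays differed in the sex of their RNA, and Tet2-deficient replicate 1 and wild-type replicate 2 held both female and male signal. All Th1 arrays had Y-linked signal and low Xist, so the sex of the RNA was not balanced between the subsets. Xist, transcribed in female cells, read 8.60 and 11.27 in Tet2-deficient Th17 cells, 5.15 and 10.07 in wild-type Th17 cells and 4.80 to 5.07 in Th1 cells, and the Y-linked Eif2s3y read 4.33 on Tet2-deficient Th17 replicate 2 and 8.46 to 9.65 on the other arrays. Members on the X chromosome were Nsdhl and Ebp.

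Over the 23 sterol genes the mean log2 signal was 8.80 and 8.63 on the Tet2-deficient Th17 arrays, 8.52 and 8.53 on the wild-type Th17 arrays, 8.51 and 8.43 on the Tet2-deficient Th1 arrays, and 8.54 and 8.53 on the wild-type Th1 arrays. Over the 13 fatty acid genes it was 9.18 and 9.12 in Tet2-deficient Th17 cells, 8.95 and 8.96 in wild-type Th17 cells, 8.90 and 8.72 in Tet2-deficient Th1 cells, and 8.77 and 8.96 in wild-type Th1 cells. Both Tet2-deficient Th17 arrays lay above the other 6 arrays in both branches. In the sterol branch replicate 1 stood farther above them than replicate 2.

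**Figure D1:**
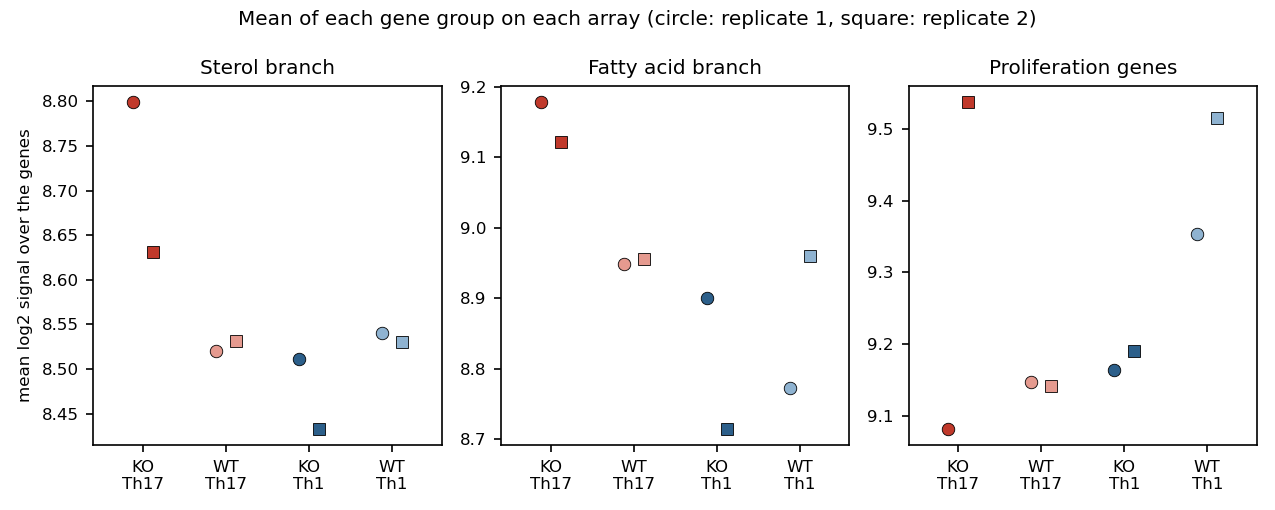
Mean log2 signal (y axis) over the 23 sterol genes, the 13 fatty acid genes and 14 proliferation genes on each of the 8 arrays, with KO for Tet2-deficient and WT for wild-type. In both lipid branches the Tet2-deficient Th17 arrays (8.80 and 8.63, and 9.18 and 9.12) are the highest, while the proliferation genes place Tet2-deficient Th17 replicate 1 lowest at 9.08 and replicate 2 highest at 9.54.

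Loss of Tet2 in Th17 cells went with slightly higher signals of most members, but no single member passed the test. Of 36 members, 31 had a positive log2 fold change, Tet2-deficient over wild-type, against 54.4% of all genes, and the median was 0.19 for the members and 0.01 for all genes. The sterol branch had 20 of 23 positive with a median of 0.20, and the fatty acid branch 11 of 13 with a median of 0.17. Limma called 0 members, against 0% of all genes called higher and 0% called lower. At an unadjusted p under 0.05 there were 6 members (16.7%), against 824 genes (4.13%) in all. Both Tet2-deficient arrays lay above both wild-type arrays for 20 members (55.6%), against a background of 18.8%, and below them for Me1, malic enzyme, a source of NADPH, and the elongase gene Elovl1 (5.56%), against 14.1%. A bulk signal cannot tell fewer cells of a type from less RNA per cell.

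The largest difference was that of Dgat1, which makes triglyceride from diacylglycerol (gene ID 13350, chromosome 15, 76502012 to 76512021 in GRCm38). Dgat1 read 10.11 and 10.17 on the Tet2-deficient Th17 arrays and 9.30 and 9.49 on the wild-type Th17 arrays. The arrays did not overlap and the log2 fold change was 0.75 ± 0.14, a 1.68-fold difference that did not pass (adjusted p = 0.304, limma). Fads2, the delta-6 desaturase of polyunsaturated fatty acids (gene ID 56473, chromosome 19, 10062765 to 10101503), read 8.44 and 8.45 in Tet2-deficient Th17 cells and 7.82 and 8.07 in wild-type Th17 cells, again without overlap. Its log2 fold change was 0.49 ± 0.14 (adjusted p = 0.779, limma). Scd2, a stearoyl-CoA desaturase, read 11.46 and 11.49 in Tet2-deficient Th17 cells and 11.23 and 11.09 in wild-type Th17 cells, a log2 fold change of 0.32 ± 0.15. Its neighbour Scd1, 87585 bases away on chromosome 19, had 0.24 ± 0.15, and whether their probes share signal was not tested. Fads1, the delta-5 desaturase 81373 bases from Fads2, had 0.28 ± 0.15. Acaca and Fasn, the enzymes that build the chain, had 0.06 ± 0.12 and 0.13 ± 0.17, with overlapping arrays for both.

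All 6 mevalonate genes had positive log2 fold changes in Tet2-deficient over wild-type Th17 cells, with a median of 0.19. Hmgcs1, the synthase that makes HMG-CoA, read 9.93 and 9.85 in Tet2-deficient Th17 cells and 9.74 and 9.28 in wild-type Th17 cells, a log2 fold change of 0.37 ± 0.16. It was 0.14 without wild-type Th17 replicate 2 and 0.60 without replicate 1. Fdps, which makes farnesyl diphosphate, read 9.98 and 9.90 in Tet2-deficient Th17 cells and 9.52 and 9.65 in wild-type Th17 cells, a log2 fold change of 0.35 ± 0.12 (adjusted p = 0.997, limma). From squalene to cholesterol, 10 of 11 genes were positive, with a median of 0.28. Lss, which closes squalene epoxide into lanosterol, read 8.36 and 8.20 in Tet2-deficient Th17 cells and 7.84 and 8.02 in wild-type Th17 cells, a log2 fold change of 0.35 ± 0.15. Nsdhl, Dhcr7, Msmo1, Fdft1 and Cyp51, which act before and after lanosterol, had log2 fold changes between 0.28 and 0.33. The arrays of the 2 genotypes did not overlap for Hmgcs1, Fdps or Lss. Of the controllers, Insig1 had 0.22 ± 0.14, Srebf2 0.20 ± 0.14, Srebf1 0.17 ± 0.13, Insig2 -0.01 ± 0.14 and Scap -0.04 ± 0.12, and none passed. Stard4, a sterol carrier, had 0.22 ± 0.16. The median over these 6 genes was 0.18.

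The size of the shift in Th17 cells depended on 1 array. Without Tet2-deficient Th17 replicate 1 the median over the members was 0.09, and without replicate 2 it was 0.26, while 31 and 32 of 36 log2 fold changes were positive. Within the Tet2-deficient Th17 group, 11 of 36 members were higher on replicate 2 than on replicate 1, with a median difference of -0.15. Over the 17 alternative settings between 30 and 33 log2 fold changes were positive. Several of these settings cannot alter a genotype difference within Th17 cells, so their agreement says nothing about stability. They are the replicate block, only the arrays compared, eBayes without the trend, every probe set tested and leaving out a Th1 array. With the female share of the RNA as a covariate 33 of 36 were positive, with a median of 0.22. Of 14 measured proliferation genes, 13 also had positive log2 fold changes in Tet2-deficient over wild-type Th17 cells (median 0.17, 0 called), and their mean signal was 9.08 and 9.54 on the Tet2-deficient and 9.15 and 9.14 on the wild-type Th17 arrays. Of 3 natural killer cell genes, 3 were positive, with a summed linear signal of 194.2 to 310.5 in Tet2-deficient Th17 cells and 118.1 to 125.8 in wild-type Th17 cells. Most of that sum was Klrd1, at 7.25 and 8.07 in Tet2-deficient and 6.30 and 6.51 in wild-type Th17 cells, while the defining Ncr1 and Klrb1c lay at 4.01 to 4.69 in Tet2-deficient and 3.99 to 4.55 in wild-type Th17 cells. Of 6 myeloid genes, 6 were positive, with a summed signal of 250.3 to 262 in Tet2-deficient and 236 to 238.4 in wild-type Th17 cells. The summed signals of B cell genes (138.1 to 145.3 in Tet2-deficient and 127.8 to 146.6 in wild-type Th17 cells) and CD8 genes (151.7 to 156.6 and 145.8 to 158) overlapped. The Th17 markers moved as well: the summed signal of 4 Th17 genes was 2909 to 3644 in Tet2-deficient and 3755 to 3980 in wild-type Th17 cells. Their log2 fold changes were negative in 4 of 4 cases (median -0.25, 0 called). Among them Il17a, the cytokine that names the subset, had -0.67 ± 0.16 (adjusted p = 0.728, limma). The summed signal of 4 Th1 genes was 1826 to 1923 in Tet2-deficient and 1534 to 1685 in wild-type Th17 cells. Their log2 fold changes had no common direction, with 2 of 4 positive (median -0.02, 0 called). Il12rb2 had 0.36 ± 0.13 and Tbx21, lower on both Tet2-deficient arrays, -0.55 ± 0.16. The part of these cells, of subset identity, of proliferation and of the sex of the RNA in the shift was not tested.

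**Figure D2:**
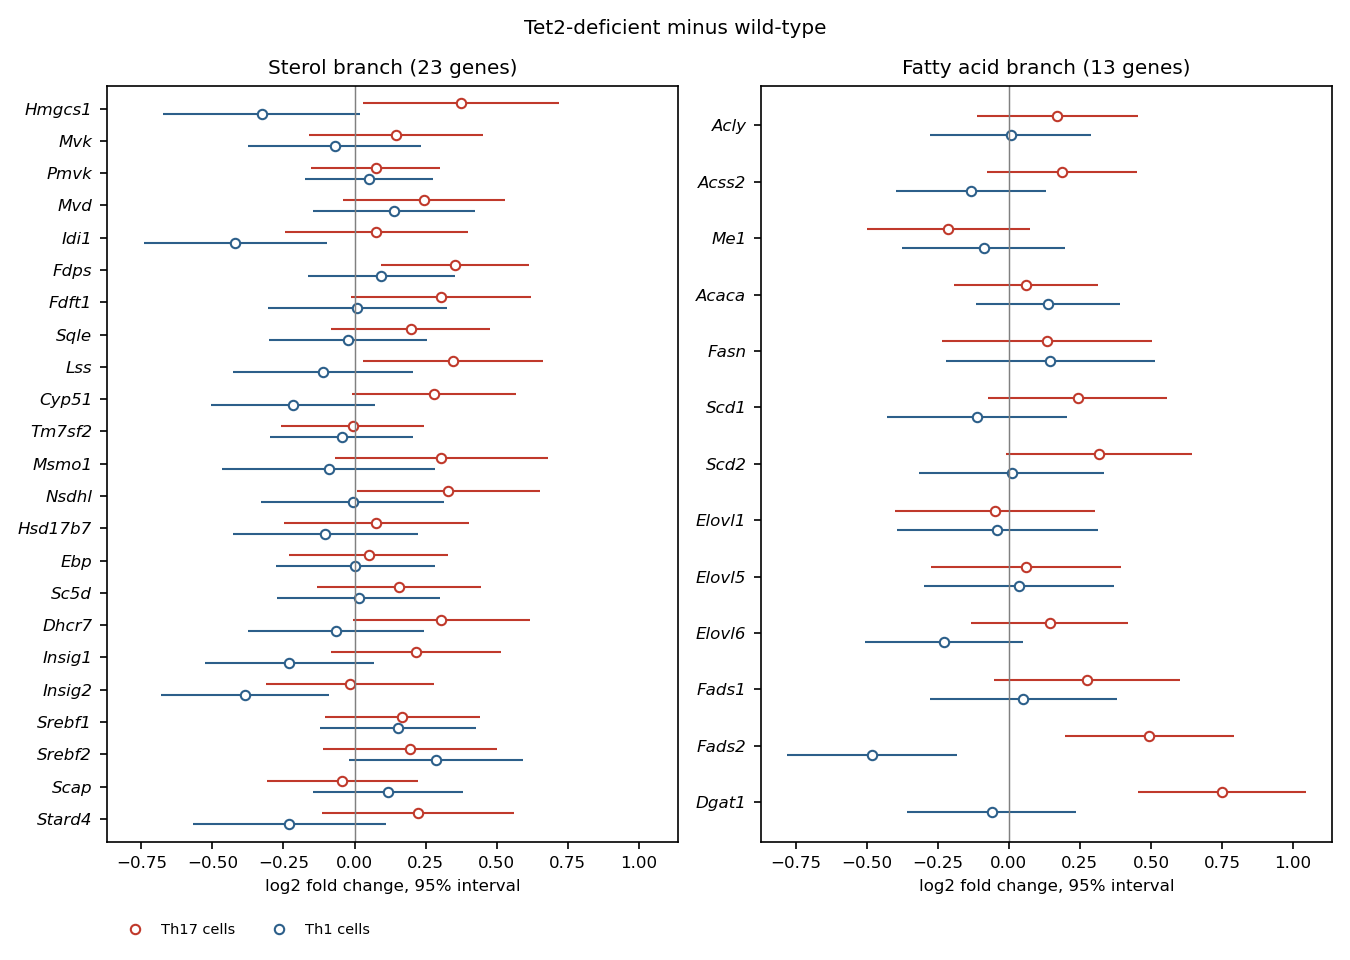
Log2 fold change of each member, Tet2-deficient minus wild-type (x axis), with its 95% interval from limma, in Th17 cells (upper point of each pair, red) and in Th1 cells (lower point, blue), n = 2 arrays per group. In Th17 cells 31 of 36 points lie above 0 and in Th1 cells 15 of 36, and no gene was called in either subset.

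In Th1 cells, loss of Tet2 left the members without a common direction. Of 36 log2 fold changes, Tet2-deficient over wild-type, 15 were positive, with a median of -0.04, against 54.1% and 0.01 for all genes. The medians of the sterol and the fatty acid branch were both -0.04. Limma called 0 members, against 0% of all genes called higher and 0.00502% called lower, and 3 members (8.33%) had an unadjusted p under 0.05, against 1206 genes (6.05%). Both Tet2-deficient arrays lay above both wild-type arrays for 6 members (16.7%), against a background of 19.6%, and below them for 7 (19.4%), against 13.7%. The shares were near the background in the upward direction and somewhat above it in the downward one.

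The 3 members with an unadjusted p under 0.05 were all lower in Tet2-deficient Th1 cells. Fads2 read 8.17 and 7.86 in Tet2-deficient Th1 cells and 8.43 and 8.56 in wild-type Th1 cells, a log2 fold change of -0.48 ± 0.14 (adjusted p = 0.797, limma). Idi1, the isomerase of the mevalonate steps, read 9.04 and 9.32 in Tet2-deficient Th1 cells and 9.54 and 9.67 in wild-type Th1 cells, a log2 fold change of -0.42 ± 0.15. Its second probe set, assigned to the same transcripts, gave -0.35. Insig2, the INSIG protein that is less dependent on SREBP than Insig1, read 7.95 and 7.88 in Tet2-deficient Th1 cells and 8.19 and 8.42 in wild-type Th1 cells, a log2 fold change of -0.39 ± 0.14. Hmgcs1 read 9.37 and 9.67 in Tet2-deficient Th1 cells and 9.82 and 9.87 in wild-type Th1 cells, a log2 fold change of -0.33 ± 0.16 that was -0.18 without Tet2-deficient Th1 replicate 1. Elovl6, which lengthens palmitate, read 8.14 and 8.05 in Tet2-deficient Th1 cells and 8.29 and 8.35 in wild-type Th1 cells, a log2 fold change of -0.23 ± 0.13. For all 3 the arrays of the genotypes did not overlap, nor for Hmgcs1 and Elovl6. Srebf2, at 10.08 and 9.74 in Tet2-deficient and 9.64 and 9.62 in wild-type Th1 cells, had the highest log2 fold change of the list, 0.29 ± 0.14. Fasn, fatty acid synthase, read 10.75 and 10.35 in Tet2-deficient Th1 cells and 10.37 and 10.43 in wild-type Th1 cells, so its log2 fold change of 0.15 ± 0.17 was smaller than the gap between its Tet2-deficient arrays.

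The direction over the list in Th1 cells turned on single arrays. Without Tet2-deficient Th1 replicate 1, 9 of 36 log2 fold changes were positive (median -0.12), and without replicate 2, 24 were positive (median 0.07). Quantile normalization applied again and centring of each array on its median each left 10 of 36 positive, in place of 15. Replicate 2 was below replicate 1 in 28 of 36 members in the Tet2-deficient group. In the wild-type Th1 group 12 of 13 fatty acid genes were higher on replicate 2. Proliferation genes had a mean signal of 9.16 and 9.19 in Tet2-deficient Th1 cells and 9.35 and 9.52 in wild-type Th1 cells, with 12 of 14 log2 fold changes below 0 and 0 called. The summed signal of 4 Th1 genes was 6429 to 6705 in Tet2-deficient and 8147 to 8519 in wild-type Th1 cells, but 3 of their 4 log2 fold changes were positive (median 0.03). Ifng, the cytokine of Th1 cells, was the negative 1, and the 1 gene called lower in this comparison (-1.39 ± 0.14, adjusted p = 0.00438, limma). The part of proliferation or of Ifng in the members' values was not tested.

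The Tet2-deficient effect in Th17 cells minus that in Th1 cells asks whether the genotype acts differently in the subsets. This difference was positive for 30 of 36 members, with a median of 0.24, against 9965 of all 19938 genes. Limma called 0 members and 0% of all genes in either direction, and 7 members (19.4%) had an unadjusted p under 0.05, against 894 genes (4.48%). These were Fads2 (0.98 ± 0.19, adjusted p = 0.525, limma), Dgat1 (0.81 ± 0.19, adjusted p = 0.920), Hmgcs1 (0.70 ± 0.22, adjusted p = 0.999), Cyp51, Idi1, Lss and Insig1 (0.44 to 0.50). Fads2, Hmgcs1, Cyp51 and Insig1 had effects of opposite sign in the subsets, with no overlap of the arrays in either, whereas Dgat1 had 0.75 ± 0.14 in Th17 cells and -0.06 ± 0.14 in Th1 cells. All 11 genes from squalene to cholesterol and all 6 mevalonate genes had positive differences, while Acaca (-0.08 ± 0.17), Fasn (-0.01 ± 0.24), Srebf2 (-0.09 ± 0.20) and Scap (-0.16 ± 0.17) did not. Proliferation genes had positive differences in 13 of 14 cases, with a median of 0.44 and 0 called. Averaged over the subsets, the genotype effect was positive for 27 of 36 members, against 55.1% of all genes, with a median of 0.06 for the members and 0.01 for all genes. Limma called 0 of them, against 0% of all genes in each direction, and 3 (8.33%) had an unadjusted p under 0.05, against 1093 genes (5.48%) in all, a share near the background: Dgat1 (0.34 ± 0.10), Srebf2 (0.24 ± 0.10) and Fdps (0.22 ± 0.08).

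Between subsets, members did pass the test. In Tet2-deficient cells 7 members (19.4%) were higher in Th17 than in Th1 cells, against 6.32% of all genes, and 0 (0%) were lower, against 3.79%, at adjusted p under 0.05 in limma, with 17 members (47.2%) at an unadjusted p under 0.05, against 24.8% of all genes. In wild-type cells 3 members (8.33%) were higher, against 4.97%, and 1 (2.78%) was lower, against 3.44%, with 8 members (22.2%) at an unadjusted p under 0.05, against 24.5% of all genes, so the wild-type share was near the background. Both comparisons also hold the arrays of the genotype comparisons, so an array that stands apart moves more than 1 of them. The 3 genes called higher in wild-type cells, Dgat1, Dhcr7 and Acss2, were also among the 7 called in Tet2-deficient cells, the other 4 being Elovl6, Insig1, Lss and Msmo1. Whether a gene differed more in 1 genotype than in the other is the difference tested above, which no member passed.

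Dgat1 differed most. It read 10.11 and 10.17 in Tet2-deficient Th17 cells and 8.36 and 8.64 in Tet2-deficient Th1 cells, a 3.13-fold rise with a log2 fold change of 1.64 ± 0.14 (adjusted p = 1.28e-05, limma). In wild-type cells Dgat1 read 9.30 and 9.49 in Th17 cells, against 8.47 and 8.65 in Th1 cells, a log2 fold change of 0.83 ± 0.14 (adjusted p = 0.00254, limma). Acss2, which makes acetyl-CoA from acetate (gene ID 60525, chromosome 2, 155518043 to 155562743), read 7.27 and 7.19 in Tet2-deficient Th17 cells and 6.43 and 6.37 in Tet2-deficient Th1 cells, a log2 fold change of 0.83 ± 0.12 (adjusted p = 0.000938). In wild-type cells Acss2 read 7.16 and 6.93 in Th17 and 6.43 and 6.64 in Th1 cells, and rose by 0.51 ± 0.12 (adjusted p = 0.0226). Leaving out wild-type Th1 replicate 1 or wild-type Th17 replicate 1 ended that wild-type call (adjusted p = 0.126 and 0.136). Elovl6 (gene ID 170439, chromosome 3, 129532386 to 129638495) read 8.99 and 8.69 in Tet2-deficient Th17 cells and 8.14 and 8.05 in Tet2-deficient Th1 cells, and rose by 0.75 ± 0.13 (adjusted p = 0.00275). In wild-type cells Elovl6 read 8.68 and 8.72 in Th17 and 8.29 and 8.35 in Th1 cells, a log2 fold change of 0.37 ± 0.13 that did not pass (adjusted p = 0.0914).

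In the sterol branch, Dhcr7, which makes the last reduction to cholesterol (gene ID 13360, chromosome 7, 143823167 to 143848410), read 8.32 and 7.96 in Tet2-deficient Th17 cells and 7.31 and 7.19 in Tet2-deficient Th1 cells. It rose 1.85-fold, by 0.89 ± 0.14 on the log2 scale (adjusted p = 0.00185, limma). In wild-type cells Dhcr7 read 7.70 and 7.97 in Th17 cells, against 7.29 and 7.34 in Th1 cells, a log2 fold change of 0.52 ± 0.14 (adjusted p = 0.0433). That wild-type call was lost under 10 of 17 alternative settings, among them without wild-type Th17 replicate 2 (adjusted p = 0.295), wild-type Th1 replicate 1 (0.143) or 2 (0.0897) and either Tet2-deficient Th1 array (0.0580 for both). Insig1, the sterol sensor that SREBP itself switches on (gene ID 231070, chromosome 5, 28071412 to 28078662), read 9.83 and 9.57 in Tet2-deficient Th17 cells and 9.23 and 9.02 in Tet2-deficient Th1 cells, and rose by 0.58 ± 0.14 (adjusted p = 0.0190). Lss (gene ID 16987, chromosome 10, 76531565 to 76557139) read 8.36 and 8.20 in Tet2-deficient Th17 cells and 7.88 and 7.50 in Tet2-deficient Th1 cells, and rose by 0.59 ± 0.15 (adjusted p = 0.0239). Msmo1, which removes methyl groups from lanosterol-derived sterols (gene ID 66234, chromosome 8, 64718123 to 64733578), read 9.67 and 9.13 in Tet2-deficient Th17 cells and 8.65 and 8.92 in Tet2-deficient Th1 cells, and rose by 0.61 ± 0.17 (adjusted p = 0.0410).

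Of 17 alternative settings, 4 ended the call of Insig1, 5 that of Lss and 8 that of Msmo1, through single arrays and through processing, while those of Dgat1, Dhcr7, Acss2 and Elovl6 in Tet2-deficient cells were kept in all 17. Insig1 was not called without Tet2-deficient Th17 replicate 1 (adjusted p = 0.204) or Tet2-deficient Th1 replicate 2 (0.127). Lss was not called without Tet2-deficient Th17 replicate 1 (0.184) or 2 (0.0622) or Tet2-deficient Th1 replicate 2 (0.184). Msmo1 was not called without Tet2-deficient Th17 replicate 1 (0.365, with a log2 fold change of 0.35), Tet2-deficient Th1 replicate 1 (0.257) or 2 (0.0606), or wild-type Th17 replicate 1 or 2 (0.0533 for both). With the female share as a covariate, Insig1 (0.0604) and Lss (0.133) did not pass. With all probe sets tested, Insig1 (0.0832), Lss (0.113) and Msmo1 (0.156) did not. Msmo1 also missed with only the arrays compared (0.0511) and after quantile normalization was applied again (0.0801). In wild-type cells the log2 fold changes of the 3 genes between subsets were 0.13 ± 0.14 for Insig1, 0.13 ± 0.15 for Lss and 0.22 ± 0.17 for Msmo1.

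Fads2 was the only member called lower in Th17 cells. It read 7.82 and 8.07 in wild-type Th17 cells, against 8.43 and 8.56 in wild-type Th1 cells, and fell by 0.55 ± 0.14 on the log2 scale (adjusted p = 0.0290, limma). The call was lost without wild-type Th17 replicate 1 (adjusted p = 0.165) and without wild-type Th1 replicate 1 (0.0614) or 2 (0.104). In Tet2-deficient cells Fads2 had the other sign, with 8.44 and 8.45 in Th17 cells, against 8.17 and 7.86 in Th1 cells, and a log2 fold change of 0.43 ± 0.14 that did not pass (adjusted p = 0.0677). Hmgcs1 showed the same crossing below the threshold, with log2 fold changes of 0.37 ± 0.16 in Tet2-deficient and -0.33 ± 0.16 in wild-type cells, Th17 over Th1. The wild-type value was -0.10 without wild-type Th17 replicate 2 and -0.56 without replicate 1. Stard4 read 8.15 and 8.38 in wild-type Th17 cells, against 8.81 and 8.41 in wild-type Th1 cells, a log2 fold change of -0.35 ± 0.16 that did not pass (adjusted p = 0.196) and was -0.14 without wild-type Th1 replicate 1 and -0.55 without replicate 2.

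**Figure D3:**
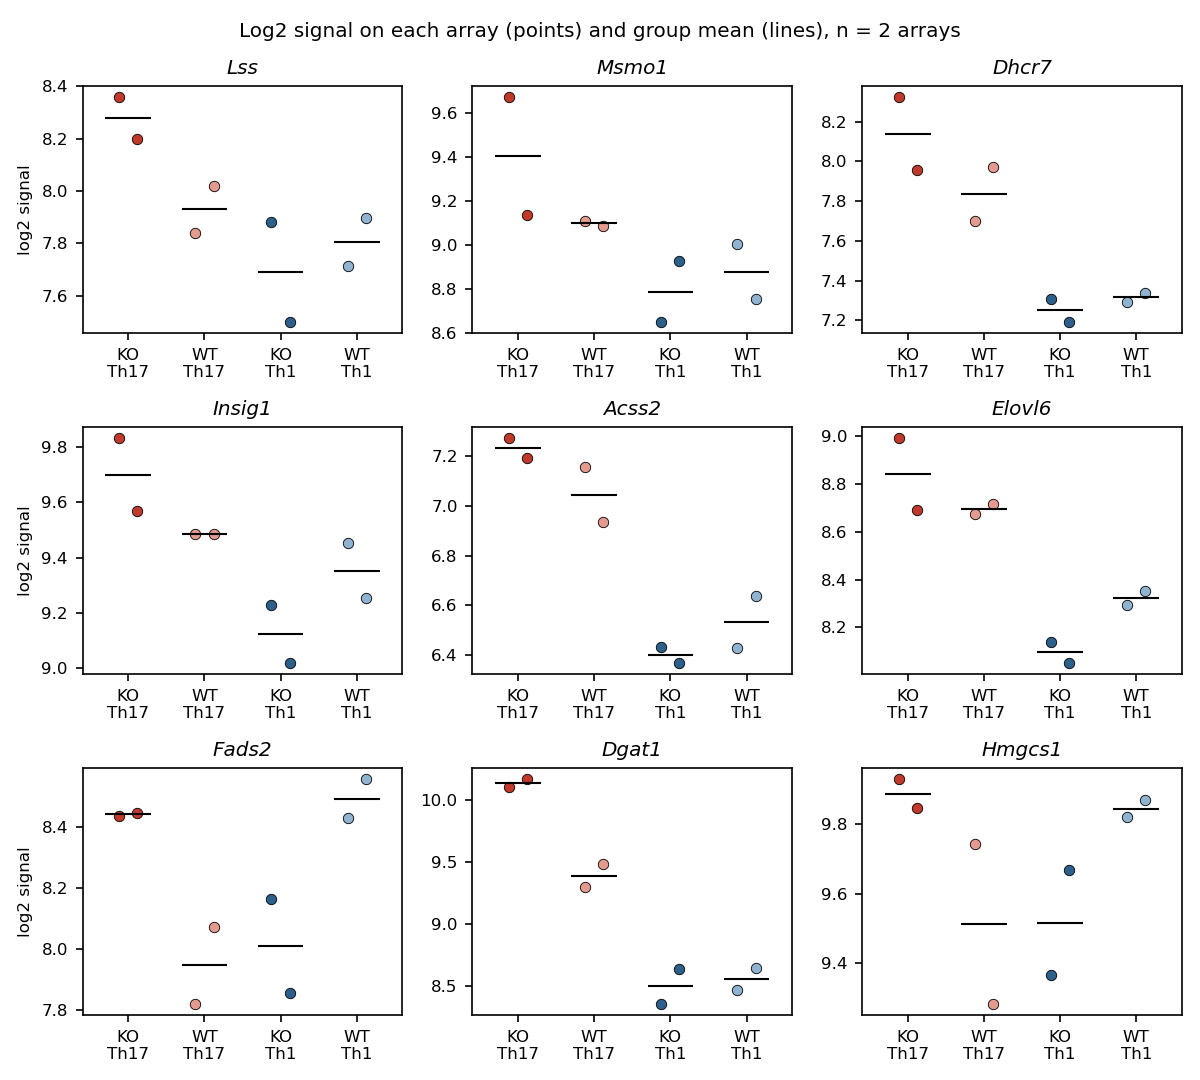
Log2 signal (y axis, scaled to each gene) on every array for the 8 members called between subsets and for Hmgcs1, with KO for Tet2-deficient and WT for wild-type, points for arrays and lines for means of 2 arrays. Dgat1, Dhcr7 and Acss2 are higher in Th17 than in Th1 cells in both genotypes, and Fads2 and Hmgcs1 run opposite ways in the genotypes.

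Over the whole list, 29 of 36 log2 fold changes, Th17 over Th1, were positive in Tet2-deficient cells, with a median of 0.19, and 18 of 36 in wild-type cells, with a median of 0.02. For all genes the positive share was 44.3% in Tet2-deficient and 44.9% in wild-type cells, with a median of -0.03 in both. The sterol branch had 20 of 23 positive in Tet2-deficient cells and 11 of 23 in wild-type cells, where only 1 of 6 mevalonate genes was positive. After quantile normalization was applied again, 25 of 36 were positive in Tet2-deficient cells and 14 of 36 in wild-type cells, where the median was -0.04. Proliferation genes, Th17 over Th1, were positive in 11 of 14 cases in Tet2-deficient cells (median 0.16, 0 called) and in 2 of 14 in wild-type cells (median -0.34, 0 called). In Tet2-deficient cells Klrd1 (1.73 ± 0.20, adjusted p = 0.000207, limma) and Xist (4.97 ± 1.13, adjusted p = 0.0155) were called higher in Th17 cells, while in wild-type cells their log2 fold changes of 0.59 ± 0.20 and 2.68 ± 1.13 did not pass. The part of these in the members' values was not tested. Without Tet2-deficient Th1 replicate 1 there were 34 positive in Tet2-deficient cells, and without replicate 2 there were 23. Acaca and Fasn, the core of fatty acid synthesis, did not pass in either genotype: Acaca had 0.19 ± 0.12 in Tet2-deficient and 0.27 ± 0.12 in wild-type cells, and Fasn 0.10 ± 0.17 in Tet2-deficient and 0.12 ± 0.17 in wild-type cells. Nor did the SREBP genes, at 0.17 to 0.19 for Srebf1 and 0.04 to 0.13 for Srebf2.

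**Figure D4:**
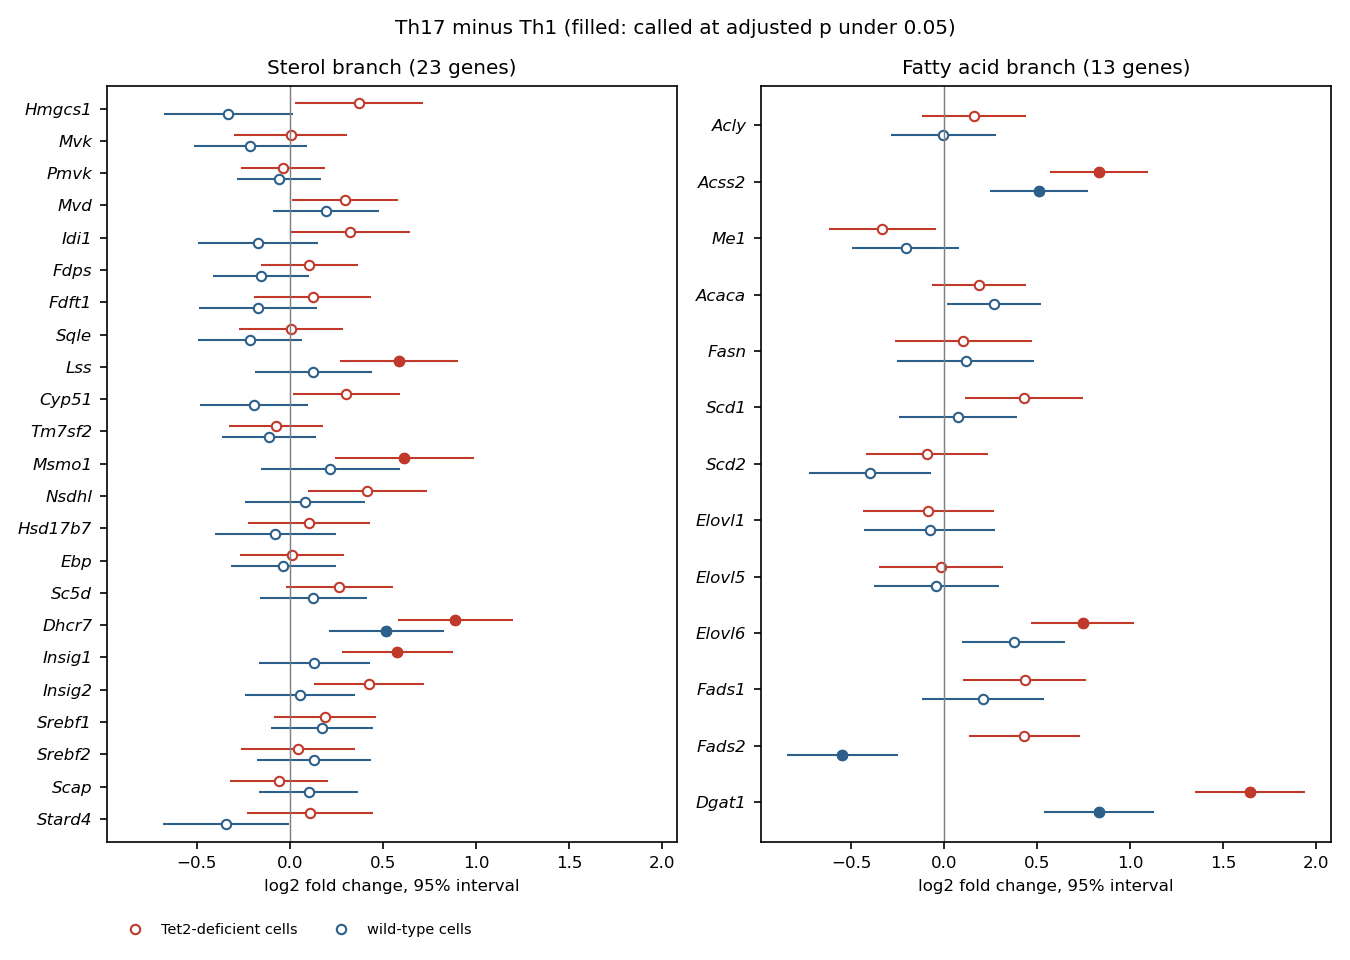
Log2 fold change of each member, Th17 minus Th1 (x axis), with its 95% interval from limma, in Tet2-deficient cells (upper point, red) and in wild-type cells (lower point, blue), n = 2 arrays per group, with filled points for genes called at adjusted p under 0.05. Filled points number 7 in Tet2-deficient and 4 in wild-type cells, with Dgat1 farthest right at 1.64 and 0.83.

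Other lipid genes were read from 6 lists with 78 of 87 genes measured. None was called in a genotype comparison. In the genotype comparison within Th17 cells, 4 of 10 other sterol and isoprenoid genes and 9 of 19 other fatty acid synthesis genes had positive log2 fold changes, with medians of -0.05 and -0.03, and 14 of 16 fatty acid oxidation genes did, with a median of 0.12. Positive values in Th17 cells were also had by 11 of 17 triglyceride and phospholipid genes, 4 of 10 genes of LXR targets, sterol storage and efflux, and 2 of 6 SREBP control genes. In Th1 cells 14 of 16 oxidation genes were positive, with a median of 0.08. So were 8 of 10 LXR list genes (median 0.14) and 13 of 17 triglyceride and phospholipid genes (0.07). The other 3 lists had 3 of 10 sterol and isoprenoid, 2 of 6 SREBP control and 9 of 19 fatty acid synthesis genes positive. Of all genes, 54.4% were positive in the Th17 and 54.1% in the Th1 comparison. Between subsets, 3 of 17 triglyceride and phospholipid genes were called higher in Th17 cells in both genotypes, against 6.32% of all genes in Tet2-deficient and 4.97% in wild-type cells. These were Lpin1, which makes the diacylglycerol that Dgat1 uses (1.10 ± 0.13 in Tet2-deficient and 0.67 ± 0.13 in wild-type cells), the lipase gene Mgll (1.46 ± 0.14 in Tet2-deficient and 1.31 ± 0.14 in wild-type cells) and Plin2, which coats lipid droplets (0.90 ± 0.16 in Tet2-deficient and 0.64 ± 0.16 in wild-type cells). Rnf145, a ubiquitin ligase that acts on SCAP in mouse liver, was called higher in Th17 cells in both genotypes (0.91 ± 0.14 in Tet2-deficient and 0.76 ± 0.14 in wild-type cells). It was the only 1 called of 6 measured SREBP control genes. Of the sterol exporters that LXR induces, Abcg1 was called higher (0.78 ± 0.12 in Tet2-deficient and 1.09 ± 0.12 in wild-type cells) and Abca1 lower (-0.43 ± 0.11 in Tet2-deficient and -0.53 ± 0.11 in wild-type cells). Mylip, whose product degrades the LDL receptor, was called higher in wild-type cells (0.53 ± 0.12). These 3 genes belong to the list of LXR targets, sterol storage and efflux, with 10 genes measured. In Tet2-deficient cells 1 of the 10 was called higher and 1 lower, and in wild-type cells 2 higher and 1 lower. Of 19 other fatty acid synthesis genes, 1 was called higher and 1 lower in each genotype. Over all genes 3.79% were called lower in Tet2-deficient and 3.44% in wild-type cells, so these shares were near the background. Hacd3, an elongation dehydratase, was called higher (0.74 ± 0.15 in Tet2-deficient and 0.65 ± 0.15 in wild-type cells) and Elovl4, which makes very long chains, lower (-0.72 ± 0.16 in Tet2-deficient and -0.67 ± 0.16 in wild-type cells). Lbr, a sterol reductase of the nuclear envelope, was called higher in Tet2-deficient Th17 cells (0.54 ± 0.15). It was the only 1 called of 10 other sterol and isoprenoid genes, and 0 were called in wild-type cells. In the oxidation list, Acadm was called higher in both genotypes (0.58 ± 0.12 in Tet2-deficient and 0.78 ± 0.12 in wild-type cells) and Cpt1a, the gate of fatty acids into mitochondria, in Tet2-deficient cells (0.52 ± 0.12). That is 2 of 16 oxidation genes in Tet2-deficient and 1 of 16 in wild-type cells, with 0 called lower. Whether lists with 1 or 2 calls differ from the shares of all genes was not tested.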

How the data were processed

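Log2 probe-set signals of 8 arrays were deposited by the authors, and per the submitters' processing notes GCOS, RMA and Affymetrix Expression Console were used, with no versions, order or options given. RMA already scales the arrays together, so no scaling was added. Array signals carry no read depth, and precision is set by having 2 arrays a group. The table held 35556 probe sets. The platform annotation of 2016 gave 21789 of them 1 symbol, 1621 several and 12146 none here, and 21698 with 1 symbol were matched by gene ID to RefSeq (GRCm38). Probe sets with several symbols or none were left out, and for 999 genes with more than 1 probe set the highest mean was kept, leaving 19938 genes with no filter on signal.

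Tests used limma 3.58.1 in R 4.3.3 (lmFit on 4 group means, eBayes with an intensity trend, 4 residual and 8.32 prior degrees of freedom, two-sided, Benjamini-Hochberg over all genes), which was tested on simulated data. Intervals are 95% intervals from limma. Figures were drawn with matplotlib 3.10.9 and motifs searched with Python 3.11.15. The members, gene lists and tests were chosen with earlier results of these data known. Values per array were given for members called in any comparison and, in each comparison of 2 groups, the 3 with the largest absolute log2 fold change per branch. Other members were named as examples. From the other lists, genes called or largest in change could be named.

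Alternatives were the replicate number as a block, only the arrays compared, genes under the median level left out, every probe set tested, probe sets averaged per gene, a repeated quantile normalization, centring, eBayes without the trend, the female share of the RNA (from linear Xist signal, 0 at the median of the Th1 arrays and 100 at the highest array) as a covariate, and leaving out each array. A rule to print promoters of called sterol genes with a sterol element found none, as stated with the sequences. No protein sequences were used here.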

Additional observations from a re-analysis of the deposited data

How the results depend on the processing

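Under 17 alternative settings, 400 counts of called members and branch medians were recomputed. Of these, 383 stayed within 1.5 times the count or within 1 SD of the main median. That SD is the spread of a branch's median signal between arrays of a group, 0.153 for the sterol and 0.109 for the fatty acid branch. It is larger than several of the medians themselves, so a median could lose most of its size and still count as unchanged. Of 425 log2 fold changes of named genes, 387 kept sign and side of the threshold, 37 kept their sign and lost their call, and 1 changed sign. The named genotype values, and Hmgcs1 and Stard4 between subsets in wild-type cells, had no call to lose. Some settings also leave a fold change unaltered by construction, and the genes were named for their size or call in these data. All 37 lost calls were calls between subsets. No member was called in a genotype comparison under any setting. Few or no genes of the whole table were called there either, so those counts say little about stability. A branch median near 0 could also change sign and still stay within 1 SD. Between subsets in wild-type cells, 1 member was called higher and 0 lower with only the arrays compared and with all probe sets tested, and 0 lower with the female share. Over all genes the wild-type calls fell too, from 990 higher and 685 lower to 652 and 449 with only the arrays compared. With the female share they were 710 and 476, and with all probe sets tested 380 and 219 of 35556. In Tet2-deficient cells 4 were called higher with all probe sets tested, where more features share the adjustment and 646 of 35556 were called higher. The fatty acid median there, 0.19, became 0.31 with genes under the median level left out, which drops Me1. Leaving out 1 array gave 4 to 8 members called higher in Tet2-deficient cells, 1 to 3 higher and 0 to 1 lower in wild-type cells. It gave fatty acid medians of 0.15 to 0.30 between subsets in Tet2-deficient cells, -0.17 to 0.094 for genotype in Th1 cells and 0.14 to 0.40 for the difference between subsets. Fasn changed sign in Tet2-deficient over wild-type Th1 cells (-0.054 to 0.35 by array left out). Same-numbered arrays did not deviate together between groups (r across genes -0.19 to 0.06). With 2 arrays a group, each pair of groups gives a single such value, which cannot exclude pairing. The labels do not state whether the numbers pair the arrays. With the replicate number as a block, 2 members were called higher and 1 lower in wild-type cells, and 7 higher in Tet2-deficient cells. Over all genes that fit called 794 higher and 604 lower in wild-type cells, and 1081 higher in Tet2-deficient cells. Dhcr7 in wild-type cells (adjusted p = 0.0600, limma) was the member call that was lost. An array left alone in its group is assumed to vary like the others. Idi1, Fdft1, Me1 and Acaca have 2 probe sets each. In Tet2-deficient over wild-type Th1 cells these differed in sign for Fdft1 (0.01 and -0.15) and Acaca (0.14 and -0.06). The cause of these changes was not tested.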
